A study of Trachinotus blochii with 12 samples.

Results

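The brain of fish that tolerated acute hypoxia (Tol) held 66 gene models at lower levels than the brain of fish that did not (Intol). On a log2 scale, the mean liver level of the same models differed by less than 0.25 between Tol and Intol. Of the 23 models among them with a liver mean of at least 1, 19 passed that limit when a single liver library was left out. How often other models do so was not computed. These 66 are members of a set taken out of 18490 gene models of Trachinotus blochii, the golden pompano, a sea fish reared for food. The members were chosen by measured values: D, the mean log2(value + 1) in Tol minus that in Intol, had to be at most -0.5 in brain. All 3 Tol brain values had to lie below all 3 Intol brain values. The mean over the 6 brain libraries had to be from 1 to below 200, the absolute liver D below 0.25, and the mean over the 6 liver libraries below 400. Differences between Tol and Intol in either tissue are therefore descriptions of the set and support nothing.

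All fish were 2 months old, and the labels name no genotype, strain or drug. They were held in 3 tanks of 80 fish at 0.9 mg/L dissolved oxygen, and they fasted throughout. Intol fish had floating heads, had lost their balance and were dying within 1 h, and Tol fish were still normal after 24 h. Each status gave 3 liver and 3 brain RNA libraries, 12 in all, from 42 fish taken per status, 14 from each tank. How many fish entered a library, and whether a library number stands for a tank, is not stated. Status, time under hypoxia and time without food cannot be told apart, and since fish kept in normal oxygen were not among the libraries, a lower Tol value may be a Tol decrease or an Intol increase.

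Brain is among the tissues most dependent on a steady oxygen supply, and hypoxia in vertebrates is known to alter transcription there through hypoxia-inducible factors, stress hormones and neuronal activity. The liver is the main store of glycogen and a centre of lipid metabolism, and it feeds other tissues with glucose during such stress. Gene names are not paired with the models in these files, and no annotation was used here, so 0 models matched a name and none can be placed in these pathways. Model identifiers carry the word GLEAN, the name of a program that merges gene predictions. Identifiers are printed below for 6 members picked by a rule given with the processing, and the other members are called by their rank, where rank 1 has the largest brain difference. The tissue labels could not be checked with marker genes. Liver and brain libraries correlated across gene models at 0.453 to 0.473, and libraries of the same tissue at 0.940 or more. Intol brain 3 stood apart from the other brains, with correlations of 0.982 to 0.987 to them, where the other 5 correlated with each other at 0.989 to 0.994.

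The deposited values were taken to be FPKM, a level per gene length and per library size, and their sums were 360680 to 373167 in brain and 581739 to 622240 in liver libraries. The read depth is unknown, so no counting interval is given, and a model listed at 0 may be a failed estimate. In bulk tissue, fewer cells of a type and less RNA per cell cannot be told apart. The p-values measure only the spread between these libraries, which may be technical.

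Of all models, 258 had a brain D of -0.5 or less, and in 148 of these the Tol and Intol brain values were also separated. The limits on brain and liver level left 133. Among these 133, 49 had a liver D of -0.25 or less, 18 a liver D of 0.25 or more, and 66 lay between and form the set. The median change of all 9109 models tested in liver was -0.20, so limits even about 0 were off-centre there. The 66 are 0.477% of the 13824 models in the same window of brain and liver levels. Of those 13824, 7904 lay within the liver limit. The mirrored rule, with Tol brains higher by at least 0.5, found 95 models, out of 134 before its liver limit, where the rule for lower Tol brains had 133. The member nearest the brain limit had a D of -0.503 and the nearest model outside it -0.497. At the liver limit these were 0.2498 inside and 0.257 outside, in absolute size. In the narrow band from -0.55 to -0.5 lay 15 members, and 16 models that met every other condition lay just outside, from -0.5 to -0.45.

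**Figure D1:**
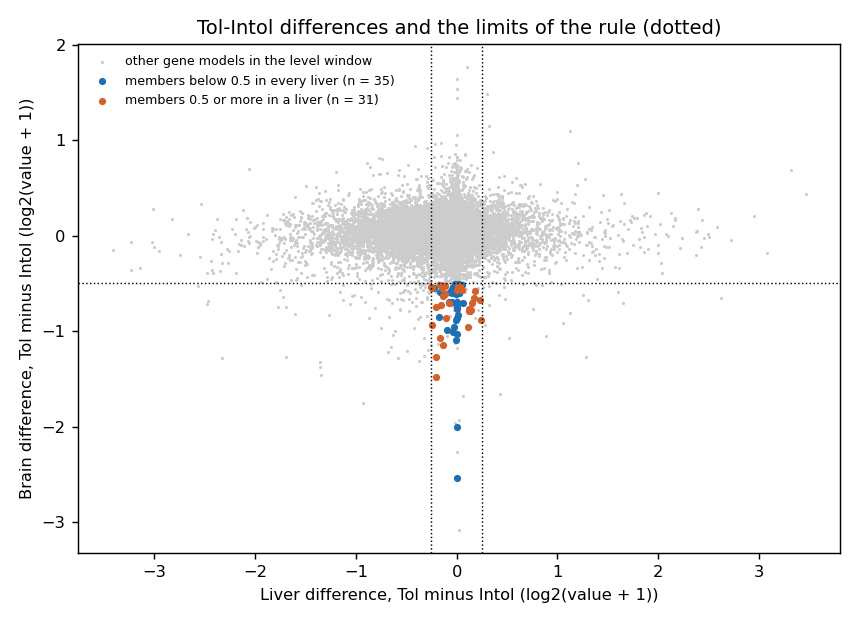
Difference between Tol and Intol in liver (x axis) and brain (y axis) on the log2(value + 1) scale, 1 point per gene model in the level window, with the rule's limits as dotted lines. Members below 0.5 in every liver (35, blue) had a median liver difference of -0.01 and reached -0.22 at rank 54. The other 31 (orange) spread across the liver limits from -0.25 to 0.24. Grey points inside the limits had overlapping brain groups.

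The members were mostly of low to middle abundance in brain. Their brain mean ranged from 1.15 to 136.9 with a median of 9.14, against a median of 8.56 over all models in the window. It was at least 100 in 3 members, from 10 to 100 in 25 and under 10 in 38. The median D over the 66 was -0.69, where the median change of all 14146 models tested in brain was 0.04. It was -1 or less in 9 members, from above -1 to -0.75 in 15 and nearer to -0.5 than that in 42. As a ratio of group means, Intol brain exceeded Tol brain 1.71-fold at the median of the 65 members with a Tol mean above 0, from 1.44-fold to 4.92-fold, and 18 of the 65 had a ratio of at least 2.

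Trachinotus_GLEAN_10009079, rank 1, had the largest brain difference. Its values were 2.21, 10.69 and 35.44 in Tol brains and 63.00, 69.04 and 59.26 in Intol brains. Intol brains were alike, at 63.8 ± 4.9 (SD, n = 3), whereas the highest Tol value was many times the lowest and the Tol mean of 16.1 ± 17.3 was smaller than its SD. It was listed at 0 in all 6 livers. The D was -2.54 ± 0.78 (SE), or -1.65 without Tol brain 1 and -3.40 without Tol brain 3, and the Benjamini-Hochberg adjusted p was 0.203 (limma).

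Trachinotus_GLEAN_10007733, rank 3, had values of 10.41, 8.62 and 12.58 in Tol and 28.59, 16.44 and 61.57 in Intol brains. Here the Tol brains were alike and the Intol brains differed among themselves, with the third the highest. The D was -1.48 ± 0.43 (SE; limma adjusted p = 0.19) and -0.99 without Intol brain 3. In liver it was low in every library, at 1.54 ± 0.25 in Tol and 1.94 ± 0.33 in Intol (SD, n = 3), with a liver D of -0.21. That liver difference became -0.01 after median-ratio scaling and 0.01 after quantile normalization.

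Rank 2 was a brain model at the edge of detection. It was listed at 0 in all 3 Tol brains and all 6 livers, and at 3.53, 5.62 and 1.14 in Intol brains. Rank 4 differed more evenly, with values of 1.12, 1.30 and 1.74 in Tol and 5.21, 3.82 and 5.23 in Intol brains. It had the smallest adjusted p of the members in brain, 0.0524 (limma), with a D of -1.27 ± 0.15 (SE). Rank 4 was expressed in liver too, at 1.88 to 7.51, with overlapping Tol and Intol values.

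Rank 8 was listed at 0 in all 6 livers and at moderate level in brain, at 16.36, 27.97 and 23.22 in Tol against 51.73, 38.67 and 49.11 in Intol. Its lowest Intol value stood well above its highest Tol value, and the ratio of means was 2.06. Rank 34, also at 0 in every liver, was more abundant, at 48.82, 75.33 and 60.50 in Tol against 105.86, 97.32 and 92.61 in Intol brains. In both models the second Tol brain was the highest of the 3 and the first the lowest. Rank 26 was even within both groups, with 17.98, 19.29 and 23.15 in Tol and 34.37, 32.24 and 36.19 in Intol brains, and a D of -0.74 ± 0.10 (SE; limma adjusted p = 0.0762).

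**Figure D2:**
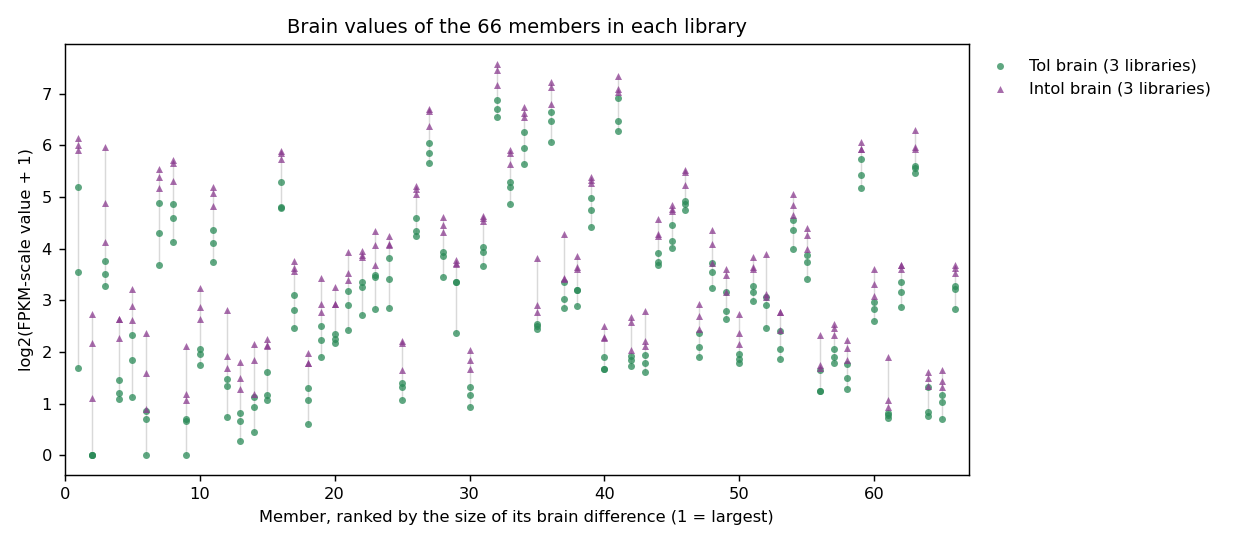
Value of each of the 66 members in each of the 6 brain libraries (y axis, log2(value + 1)), with members ranked by the size of their brain difference (x axis). Circles are the 3 Tol and triangles the 3 Intol brains. At rank 1 the Tol circles spread from 2.21 to 35.44 while the Intol triangles lie close together. The groups nearly touch at ranks as far apart as 6 and 53, with gaps of 0.05 and 0.02 in value.

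Separation of the groups was often narrow. The distance from the highest Tol to the lowest Intol brain value had a median of 0.286 on the log2(value + 1) scale, from 0.00487 to 1.1, and was under 0.1 in 12 members. Rank 53 shows the narrow end, with its groups 0.02 apart in value. The members also varied more within groups than other models of the window. The median SD of log2(value + 1) was 0.247 in Tol and 0.201 in Intol brains, against 0.0933 and 0.121 over the window. It was larger in Tol than in Intol brains for 40 of the 66, and the window share of such models was not computed. The rule used these brain values and the window models were not chosen by them, so the comparison is a description. Models with a like brain D were not set beside the members. A member was listed at 0 in at least 1 Tol brain in 3 cases, and in an Intol brain in 0 cases. The rule fixed the second count, since each Intol brain value had to lie above every Tol brain value.

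No member passed the brain test across all models. A filter on low values, at least 1 in at least 3 of the 6 brains, kept 64 of the 66. Of these, 0 had an adjusted p under 0.05 (limma), and the range was 0.0524 to 0.312. Over all 14146 models tested, 0.0141% were called lower in Tol. At an unadjusted p under 0.05 (limma) 63 of the 64 were lower, against 6.1% of all models, and the 3 Tol brains lay below the 3 Intol brains in 7.78% of all models. The rule used this contrast, so nothing is read from these counts. With all 12 libraries in one fit, 19 of 65 members were called lower in brain, where 0.27% of all models were. That fit pools the spread of liver and brain, and values near 0 in liver hardly vary.

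The members were divided into 2 kinds by their liver level, at a value of 0.5 set after the values were seen. The division is not a clean one. Rank 13 reached 0.5 only in Intol liver 1, at 0.54, and had a liver mean of 0.13. Rank 19 stayed below 0.5 in every liver with a higher liver mean, 0.36. In 35 members every liver value was below 0.5, and 7 of these were listed at 0 in all 6 livers. In the other 31 at least 1 liver reached 0.5, and 23 of these had a liver mean of 1 or more, up to 79.0. The 35 make up 53.0% of the set. The liver limit by itself favours models near 0 in liver, whose D is close to 0: of the 7904 window models within that limit 45.8% were below 0.5 in every liver, against 26.6% of the whole window.

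The liver against brain contrast, averaged over Tol and Intol with equal weight, was not itself part of the rule. The rule did bound the mean levels, at 1 to below 200 in brain and below 400 in liver. Its liver limit also favours models near 0 in liver. With a brain mean of at least 1, such models are higher in brain nearly by construction. The shares among window models within the liver limit were not computed. It was tested with limma over all 12 libraries. Of 65 members tested, 56 were higher in brain, 5 higher in liver and 4 not called at an adjusted p under 0.05. With Intol brain 1, 2 or 3 left out, 53 were higher in brain each time, and 4, 4 and 5 higher in liver. With all 12 libraries the members' shares were 86.2% higher in brain and 7.69% higher in liver. Among all 14817 models tested 82.1% were higher in brain and 13.2% in liver, and among those in the level window 86.7% and 8.64%. The members' shares were thus near those of other models at these levels. All 34 members tested that were below 0.5 in every liver were higher in brain, as were 22 of the other 31. The shares of window models divided in this way were not computed, so nothing is read from these counts.

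The 2 members most shifted to brain were among the 3 with a brain mean of at least 100. Trachinotus_GLEAN_10008071, rank 32, was at 92.58, 102.81 and 116.70 in Tol against 190.29, 143.35 and 175.48 in Intol brains. It was at 0.16 or below in every liver, and its liver minus brain difference was -7.02 ± 0.08 (SE) on the log2(value + 1) scale. Trachinotus_GLEAN_10019521, rank 41, was at 75.91, 119.86 and 87.29 in Tol against 160.31, 134.97 and 129.27 in Intol brains, and at 0.02 or below in every liver, with a difference of -6.84 ± 0.10 (SE). Both had groups apart in brain by far more than their liver level. Their brain D was -0.70 ± 0.12 and -0.60 ± 0.16 (SE), with adjusted p of 0.0972 and 0.174 (limma).

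The 2 members most shifted to liver had brain means of 10.1 and 5.52. Trachinotus_GLEAN_10015853, rank 37, was at 90.59, 80.96 and 55.14 in Tol livers and 65.86, 96.98 and 84.21 in Intol livers, with overlapping groups. In brain it was at 7.17, 6.20 and 9.27 in Tol against 9.77, 9.65 and 18.51 in Intol. Its brain D was -0.63 with all brains and -0.34 without Intol brain 3. Liver exceeded brain by 2.90 ± 0.19 (SE; limma adjusted p = 1.23e-08).

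Trachinotus_GLEAN_10005751, rank 20, was at 42.79, 26.31 and 23.07 in Tol livers and 25.93, 32.72 and 22.94 in Intol livers, again overlapping. Its brain values were low and even, at 3.73, 4.07 and 3.50 in Tol against 6.62, 8.57 and 6.63 in Intol. The brain D was -0.79 ± 0.11 (SE; limma adjusted p = 0.0842), from -0.84 to -0.68 with each brain left out. Liver exceeded brain by 2.22 ± 0.14 (SE; limma adjusted p = 1.44e-08).

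**Figure D3:**
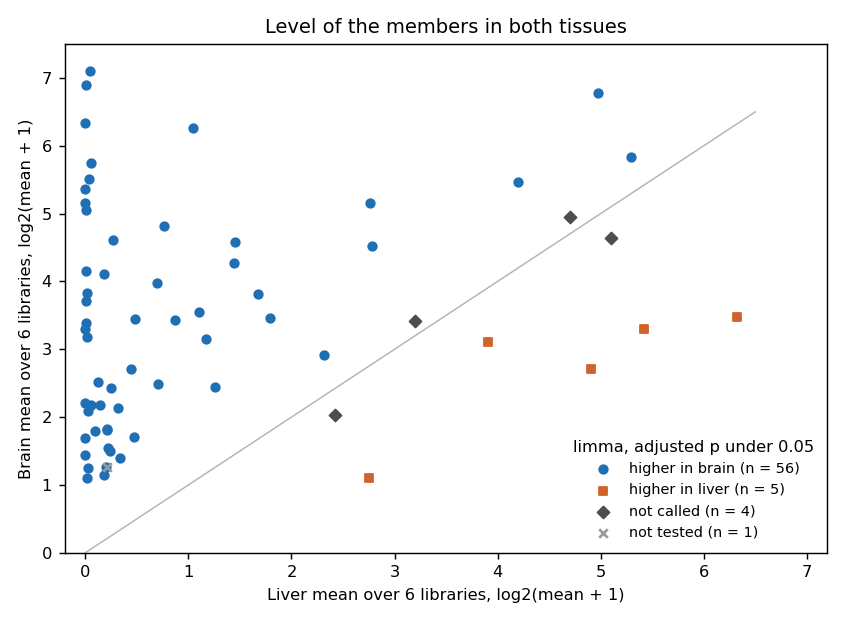
Mean level of each member over the 6 livers (x axis) and the 6 brains (y axis), both as log2(mean + 1), with the line of equal level. Points at the left edge are the members at or near 0 in liver; 56 members were higher in brain, 5 higher in liver, 4 not called and 1 not tested (limma, adjusted p under 0.05).

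The Tol brain with the lowest value is given here for both kinds as a description only, since the rule used the Tol brain values and the kinds were set after the values were seen. Among the 35 members below 0.5 in every liver, Tol brain 1 was alone the lowest Tol brain in 24 and Tol brain 2 in 6, and 2 members had tied lowest values. Among the other 31, Tol brain 2 was the lowest in 21 and Tol brain 1 in 8. Another 65 models met the rule's brain and level conditions, reached 0.5 in a liver and lay outside the liver limit, and Tol brain 2 was the lowest in 44 of these and Tol brain 1 in 14. In the window as a whole, which was not chosen for low Tol brains, Tol brain 1 was lowest in 26.4% of models below 0.5 in every liver and Tol brain 2 in 37.5% of the others. Tol brain 2 minus Tol brain 1 had a median of 0.22 over the 35 and -0.21 over the 31 on the log2(value + 1) scale, against -0.05 and -0.01 over the corresponding models of the window.

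Across the 66 members, this difference between the 2 Tol brains correlated with the liver minus brain difference at r = -0.572 and rho = -0.650. Across the 13824 window models the values were r = -0.034 and rho = -0.014. The window models were not chosen by their Tol brain values, so nothing is read from this contrast. All points of each correlation share the same 12 libraries, and gene models are not independent replicates. Ranks 34 and 8 are examples of the first kind. Rank 5 is one of the second, with 2.58, 1.17 and 4.04 in Tol brains against 6.44, 5.14 and 8.24 in Intol brains and a liver mean of 0.63. Tol brain 3 was the lowest in 5 of all 66 members. Among Intol brains, Intol brain 2 was the lowest in 36 of the 66, against 39.2% of window models, and Intol brain 3 the highest in 26, against 46.7%.

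**Figure D4:**
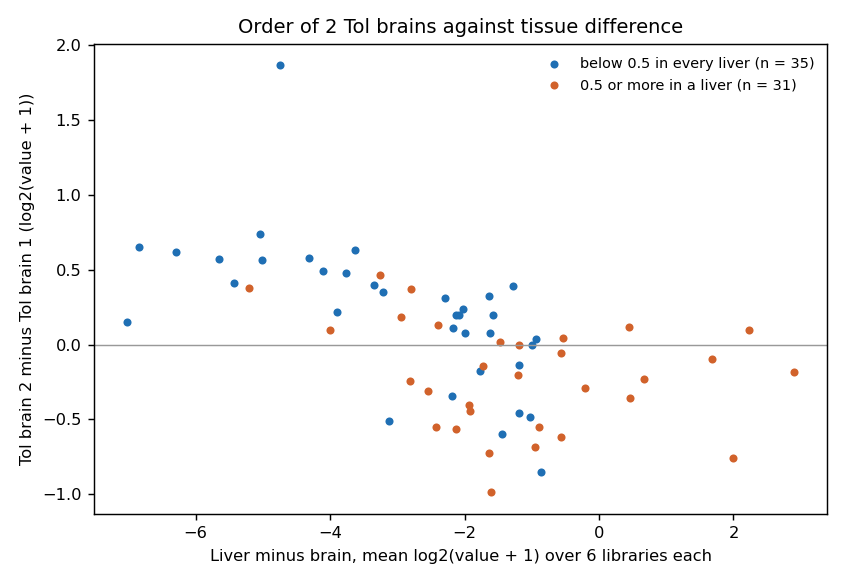
Tol brain 2 minus Tol brain 1 (y axis, log2(value + 1)) against the liver minus brain difference (x axis, mean log2(value + 1)) for the 66 members. Most members below 0.5 in every liver (blue, median 0.22) lie above 0 and most of the others (orange, median -0.21) below; the highest point is rank 1.

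In the members expressed in liver, libraries of the same group differed widely. The liver D of the 66 ran from -0.25 to 0.24 with a median of -0.01, below 0 in 34, above 0 in 24 and exactly 0 in 8. The median change was -0.20 over all 9109 models tested in liver and 0.02 over the members tested there. In limma's liver fit 23 members passed the filter on low values, and 0 of them were called or had an unadjusted p under 0.05, where 37.1% of all 9109 models were called and 47.7% had such a p. The limit on liver D selects for this. Over the same 23 members, those with a liver mean of at least 1, the median SD of log2(value + 1) was 0.409 in Intol livers and 0.270 in Tol livers, against 0.181 and 0.156 over the window models with such a mean and 0.146 and 0.136 over those of them within the liver limit.

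Intol liver 3 stood out among these 23 members. It was the lowest Intol liver in 19 of them, or 82.6%, against 32.6% of the 8126 window models with a liver mean of at least 1 and 39.3% of the 3125 of these within the liver limit. It was more than 3-fold below both other Intol livers in 6 members, against 0.591% of those window models and 0.352% of those within the limit, where 6 of the 11 such models are the members themselves. The liver limit used these values, so the counts are descriptions. One of the 6, rank 7, was at 41.82, 50.98 and 2.80 in Intol livers and 28.44, 12.96 and 13.62 in Tol livers. Its liver D of -0.16 was -1.38 without Intol liver 3. In brain it was at 18.74, 11.89 and 28.43 in Tol against 45.43, 35.10 and 40.67 in Intol, without overlap.

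Ranks 16 and 22 are a pair with consecutive model numbers, and both belong to these 6. Rank 16 was at 29.02, 29.75 and 3.13 in Intol livers and 18.83, 13.47 and 9.74 in Tol livers. Rank 22 was at 1.14, 1.72 and 0.37 in Intol livers and 1.33, 1.29 and 1.02 in Tol livers. The brain values of rank 16 were 26.61, 26.93 and 38.24 in Tol against 58.56, 52.14 and 56.78 in Intol. Those of rank 22 were 8.56, 5.53 and 9.21 in Tol against 14.44, 13.22 and 13.58 in Intol. Both thus had even, higher Intol brains and a single low Intol liver. Reads shared between neighbouring models were not examined, so their values may not be independent.

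The other 3 of the 6, ranks 11, 21 and 36, had liver means from 30.5 to 41.8. Rank 36 was the most abundant of them in brain, with 87.57, 66.03 and 99.35 in Tol against 148.26, 138.96 and 110.92 in Intol brains, and its livers were at 42.57, 25.92 and 20.52 in Tol against 40.36, 45.26 and 8.17 in Intol. Its liver D was 0.17 with all livers and -0.58 without Intol liver 3. Tol brain 2 was the lowest Tol brain in 5 of the 6 members.

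Over the 6 members the median liver D was 0.12 with all livers and -0.62 without Intol liver 3. Among all 66, leaving out Intol liver 3 moved 14 to a liver D of -0.25 or less and 0 to 0.25 or more, and leaving out Intol liver 2 moved 3 and 13. Only 4 of the 23 members with a liver mean of at least 1 kept a liver D within 0.25 whichever of the 6 livers was left out. Of the 35 below 0.5 in every liver, where the values are close to 0, 34 did. The share among other window models with such a liver mean and within the liver limit was not computed. Whether 4 of 23 is unusual is therefore not known. For the members expressed in liver, the data therefore do not show that liver was free of a difference.

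**Figure D5:**
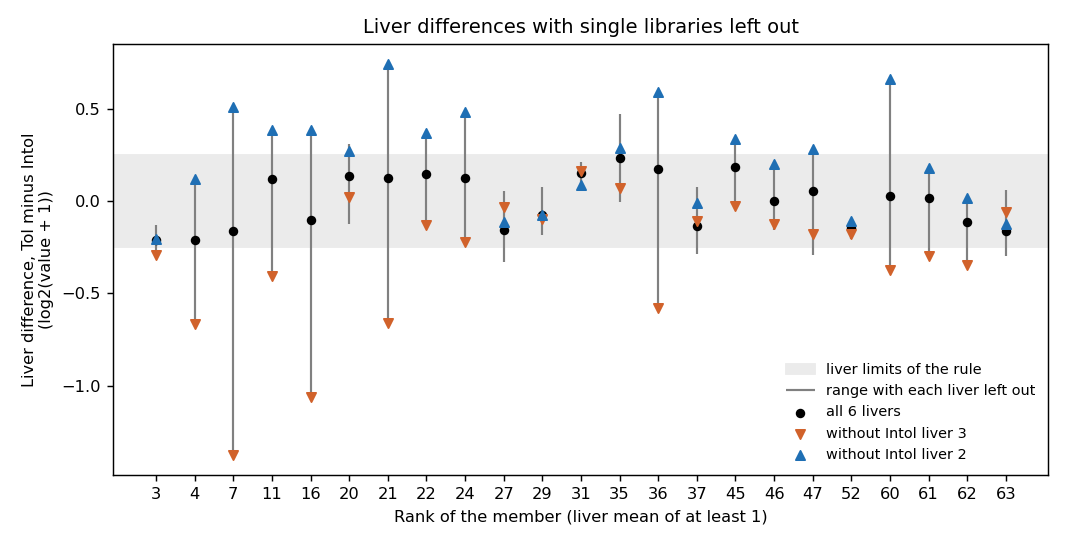
Liver difference between Tol and Intol (y axis, log2(value + 1)) for the 23 members with a liver mean of at least 1, named by rank (x axis), with all 6 livers (black) and with Intol liver 3 or Intol liver 2 left out (orange and blue triangles). Grey lines span the 6 leave-outs and the grey band the rule's limits; at rank 7 the value goes from -0.16 to -1.38 without Intol liver 3.

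Whether the Tol-Intol difference itself differed between the tissues was asked with an interaction over the 12 libraries. Of 65 members tested 24 passed at an adjusted p under 0.05 (limma), each with the liver change above the brain change, where 3.66% of all 14817 models did. These calls comprised 20 of 34 members below 0.5 in every liver and 4 of the other 31. The rule used both changes, so the count is a description. For a model near 0 in liver the interaction restates the brain difference. The fit also pools the spread of liver and brain, and values near 0 in liver hardly vary. Rank 57, at 0 in every liver, had a difference of 0.54 in size in both fits. Its adjusted p was 0.125 in the brain fit and 0.0071 in the interaction (limma). For such models the calls add nothing to the brain test, in which 0 members were called. The smallest adjusted p was 0.00227, for rank 31, with brain values of 11.71, 15.41 and 14.28 in Tol and 23.89, 22.22 and 22.97 in Intol, and a liver mean of 1.72. The interaction of Trachinotus_GLEAN_10005751, a model clearly present in both tissues, was 0.92 ± 0.29 (SE; adjusted p = 0.0398).

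Several members had close model numbers, which follow the order of the identifiers and are not coordinates. Differences of at most 10 in number joined 11 members into 6 neighbouring pairs. How many such pairs other sets of models of this size form was not computed, so nothing is read from this count. One run held ranks 40, 14 and 58, with brain means of 3.25, 1.63 and 2.53 and a liver mean of at most 0.27. Another pair, ranks 33 and 50, had brain means of 44.4 and 3.53 and liver means of 0.022 and 0.107. The pair of ranks 44 and 34 had brain means of 16.3 and 80.1.

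The set is sensitive to single libraries. With each of the 12 libraries left out in turn, 20 of the 66 met the rule every time, 16 of them below 0.5 in every liver. The brain D of these 20 ran from -2.54 to -0.57, and 18 of them also met the rule under median-ratio scaling and quantile normalization. Rank 1, rank 8, rank 26 and rank 34 are among these 18, and ranks 2, 3, 4, 7 and 16 are not among the 20. Without Intol brain 3, the brain library that stood apart, 48 of the 66 still met the rule.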

How the data were processed

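RNA was sequenced from liver and brain of Tol and Intol fish, 3 libraries for each of 4 groups. Per the labels' protocols, TruSeq libraries were read as 125-bp paired ends, cleaned, and assembled with Trinity. Which aligner, counter, genome build, annotation and scaling were used is not given in the sources used here. The deposited values have 2 decimals and no named unit. The authors' values were taken to be FPKM, being fractional and with sums that vary from library to library. The file of Intol brain 2 held a further block headed as Intol brain 1, whose 18490 values all equal that library's own, and which was not used. No library duplicated another, with at most 2.79% identical values above 0 in any pair.

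Each test was fitted on the whole table of log2(value + 1) by limma 3.58.1 (R 4.3.3), with group means and no other terms, a mean-variance trend and robust estimation, after keeping models at 1 or more in at least 3 of the libraries fitted. Adjusted p is Benjamini-Hochberg over all models tested. The fits were tested on simulated data. Tables and figures used Python 3.11.15, NumPy 2.4.6, pandas 2.3.3 and matplotlib 3.10.9.

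The members and lists were chosen with earlier results of these data known. Identifiers are printed for the 2 members with the largest brain difference at a brain mean of at least 5, and for the 2 called members most shifted to each tissue. Alternatives were median-ratio scaling and quantile normalization within each tissue, pseudocounts of 0.1 and 5, leaving out the filter or raising it to a mean of 5, limma with neither trend nor robust estimation, all 12 libraries in one fit, a difference of at least 1, the replicate number as a block, and each library left out. Same-numbered Tol and Intol libraries had correlations of deviations from -0.08 to 0.179 in brain and from -0.124 to 0.1 in liver. The numbers were therefore not taken as pairs in the main fits. With so few libraries per group, such values cannot exclude that same-numbered libraries share a tank. Liver and brain libraries of one status and number may come from the same fish, which the labels do not state. Their correlations were 0.009 to 0.115, the fits over 12 libraries took them as independent, and a fit with them as a block was added after the data were seen.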

Additional observations from a re-analysis of the deposited data

Results flagged for a closer look

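The Tol-Intol difference passed the interaction test between liver and brain in 24 of 65 members tested (limma, adjusted p under 0.05). Of all 14817 models tested, 3.66% passed in the same direction. Among the members with a printed identifier, the interaction (liver D less brain D) was 0.63 for Trachinotus_GLEAN_10008071, 0.62 for Trachinotus_GLEAN_10019521 and 0.92 for Trachinotus_GLEAN_10005751. What flagged them is a difference between tissues in the same comparison, and the rule that chose the members used both changes. Trachinotus_GLEAN_10008071 was at 0.16 or below in every liver and Trachinotus_GLEAN_10019521 at 0.02 or below. Their interactions therefore restate the brain difference.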

How the results depend on the processing

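Models meeting the rule numbered 66, and 35 with a pseudocount of 5, of which 26 were among the 66; with a pseudocount of 0.1, 45 of the 66 met it, among 71 in all. With each library left out the number ranged from 56 to 126; it was 102 without Tol brain 3 and 126 without Intol brain 2. Members called lower in Tol brain (limma), 0 in the values as deposited, numbered 1 after median-ratio scaling, 1 after quantile normalization, 1 with a mean of at least 5, 1 with the replicate block, 19 with all 12 libraries in one fit, and 0 to 3 with a library left out (3 without Tol brain 3 and 3 without Intol brain 2). The replicate block changed no other call count by over 1.5 times. Nor did a block of liver and brain libraries with the same status and number, added after the data were seen, with 27 members passing the interaction, 56 higher in brain and 4 higher in liver. Members passing the interaction numbered 24, 34 after median-ratio scaling and 37 after quantile normalization, where the share of all models passing in that direction also rose, from 3.66% to 9.02% and 8.86%; they numbered 14 with a pseudocount of 0.1, 14 with a mean of at least 5, which tests fewer models, and 16 to 26 with a library left out. Members higher in brain than liver numbered 56, and 29 with a mean of at least 5, which tests fewer models, and 53 to 56 with a library left out; those higher in liver numbered 4 to 7. The median brain change was -0.69, and -0.47 with a pseudocount of 5. The median liver change was -0.01, and -0.0668 with a pseudocount of 0.1. The median change of all models tested in liver was -0.20, and 53 of the 66 met the rule after median-ratio scaling, among 90 in all. Where no cause is named it was not tested. Of 128 further values for the printed models, 126 moved by less than the spread between replicates or stayed called. The others are the liver change of Trachinotus_GLEAN_10007733, which went from -0.21 to -0.01 after median-ratio scaling and turned sign to 0.01 after quantile normalization. Read depth is unknown, so the reliability of low values cannot be given.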

Other observations

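A group of models outside the set showed the same low Intol liver 3. This group was chosen after the values were seen, among models of the level window, which bounds the brain mean, with a liver mean of at least 1. In each, Intol liver 3 was more than 3-fold below both other Intol livers. The limit itself did not use brain D, but it is the pattern described above for 6 members, which were chosen by brain D. Setting members apart from the rest used brain D too. The group holds 48 models, 6 of them members. Of the 42 that are not members, 13 had a brain D of -0.5 or less, or 31.0%, against 1.12% of the 8103 window models that are not members and have such a liver mean. Their median brain D was -0.28, against 0.04, and the 3 Tol brains lay below the 3 Intol brains in 17 of the 42, against 7.65% of the 8103. In liver, 25 of the 42 had a D of 0.25 or more and 12 a D of -0.25 or less, with Intol liver 3 included. The same limit applied to Intol liver 1 or Intol liver 2 found 7 and 6 models, of which 0 and 0 had a brain D of -0.5 or less. Groups of 7 and 6 are too small to set against the 42. The 42 were picked by a common pattern and share the same 6 brains. They are not independent observations, and these shares are descriptions. The part of Intol liver 3 in these brain values was not tested.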
